A study of Saccharomyces cerevisiae with 4 samples.

Results

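The nuclear genes of the yeast respiratory chain and ATP synthase were described on 4 Affymetrix arrays of the haploid MATa Saccharomyces cerevisiae strain W1588-4c. The 42 genes were taken by name: 3 NADH dehydrogenases, 4 subunits of complex II, 9 of complex III, 2 cytochromes c, 9 subunits of complex IV, 13 of the ATP synthase and 2 of its inhibitors. They are 42 of the 5449 S. cerevisiae genes measured, and all lay above background on all 4 arrays. Each has 1 probe set, not counting the control probe sets named for RIP1. The treated cultures had received 0.4 mM allyl alcohol for 3 h (2 arrays) and the controls were left untreated (2 arrays), with the 2 cultures of a group described as independent experiments. Both groups carried the auxotrophic alleles leu2-3, 112, his3-11,15, ura3-1, trp1-1 and ade2-1, the canavanine resistance allele can1-100, and RAD5+. Cells of both were grown at 30 °C to an OD600 of about 1, the medium being synthetic complete with glucose at 2%. Allyl alcohol is oxidised by alcohol dehydrogenases to acrolein, an aldehyde that reacts with thiols. The exposure time of the controls is not given in the sources used here, so a difference in growth time cannot be told apart from treatment.

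In the mitochondrial inner membrane, dehydrogenases pass electrons from NADH and succinate to ubiquinone, complex III passes them to cytochrome c, and complex IV (cytochrome c oxidase) passes them to oxygen. Complexes III and IV pump protons, and the ATP synthase uses the gradient to make ATP. Yeast has no multi-subunit complex I and uses single-chain NADH dehydrogenases in its place. Glucose represses many of these genes, and the Hap2/3/4/5 complex and the haem-responsive factor Hap1 activate them. The subunits encoded in mitochondrial DNA (COX1, COX2, COX3, COB, ATP6, ATP8 and OLI1) were not analysed here.

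The arrays did not group by their labels. Across genes, which are not independent replicates, Pearson's r was 0.74 between the 2 arrays labelled allyl alcohol and 0.757 between the 2 labelled untreated. It was 0.996 between allyl alcohol replicate 2 and untreated replicate 1, and 0.991 between allyl alcohol replicate 1 and untreated replicate 2. Over the 42 respiratory genes the order was the same, with 0.705 and 0.739 inside the labels and 0.993 and 0.986 in those 2 pairs. The median absolute difference of the 42 genes was 0.77 inside allyl alcohol and 0.58 inside untreated, but 0.058 between allyl alcohol replicate 2 and untreated replicate 1 and 0.10 between allyl alcohol replicate 1 and untreated replicate 2. Over all genes these medians were 0.81 inside allyl alcohol and 0.75 inside untreated, and 0.086 and 0.14 in those 2 pairs. OYE3, an NADPH oxidoreductase known to be induced by electrophiles, had 14.07 and 8.96 on allyl alcohol replicates 1 and 2, against 8.94 and 14.15 on untreated replicates 1 and 2. GSH1, which makes the dipeptide precursor of glutathione, had 12.95 and 10.92 on the allyl alcohol arrays, against 10.93 and 13.08 on the untreated arrays. Both were named after their values were seen. It is therefore in doubt whether the labels match the cultures, and the files do not settle it. Each array is named by its label below, none was moved between groups, and every statement on allyl alcohol or untreated holds for the labels only. "Crossed order" below means a signal higher on allyl alcohol replicate 2 than on replicate 1 and also higher on untreated replicate 1 than on replicate 2. "Opposite crossed order" means the reverse in both labels. The MATa genes STE2, BAR1, MFA1 and MFA2 lay between 9.25 and 13.52 and above background on all arrays. The MATalpha genes STE3, MF(ALPHA)1 and MF(ALPHA)2 were also above background on all arrays, with signals between 6.41 and 10.37. The MATa genes were not steady inside a label. Replicate 1 minus replicate 2 was -2.52 inside allyl alcohol and 2.47 inside untreated for STE2, and -2.85 and 3.12 for BAR1. It was -2.53 and 2.52 for MFA2, and -0.77 and 1.13 for MFA1. These genes and STE3 followed the crossed order, which was thus not confined to respiratory genes. MF(ALPHA)1 and MF(ALPHA)2 followed the opposite one, by less than 2-fold inside both labels. All values below are log2 RMA signals or differences of them, unless poly-A scaling is named. Levels of different probe sets were compared only where genes are divided by mean signal.

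By label, none of the respiratory genes was called different between allyl alcohol and untreated cultures. In limma (Benjamini-Hochberg adjustment over all genes), 0 of 42 were called, beside 0% of all 5449 genes, and 0 of 42 and 0 of 5449 had an unadjusted p under 0.05. The smallest unadjusted p among the 42 was 0.455, and the adjusted p was 1 for each. The median difference, allyl alcohol minus untreated, was -0.026 over the 42 genes and -0.025 over all genes. Single differences ran between -0.26 for NDE2 and 0.15 for INH1. The median difference of the 42 genes was 0.30 when allyl alcohol replicate 1 was left out and -0.34 when its replicate 2 was left out. It was 0.26 without untreated replicate 1 and -0.34 without untreated replicate 2, so its sign depended on the array left out, while 0 genes were called in each of these fits. The 7 groups of genes had median differences between -0.14 (NADH dehydrogenases) and 0.044 (complex III).

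The 95% intervals of the differences were wide. The half-width of the 95% interval was smallest for ATP4, whose difference of 0.012 had bounds of -0.89 and 0.91, and largest for COX4, at 0.007 with bounds of -3.85 and 3.87. COX4 encodes a subunit needed for complex IV assembly. With intervals of this width, a missing call does not show that the groups were alike. In 39 of the 42 genes the SD inside each group exceeded the difference between the groups; the exceptions were NDE2, SDH2 and STF1. The groups did not overlap for 1 gene, NDE2, where allyl alcohol was lower. All genes without overlap made up 1.89% with allyl alcohol higher and 3.34% with it lower. With 2 arrays in each group, the smallest two-sided p that exact permutation allows is 0.333.

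**Figure D1:**
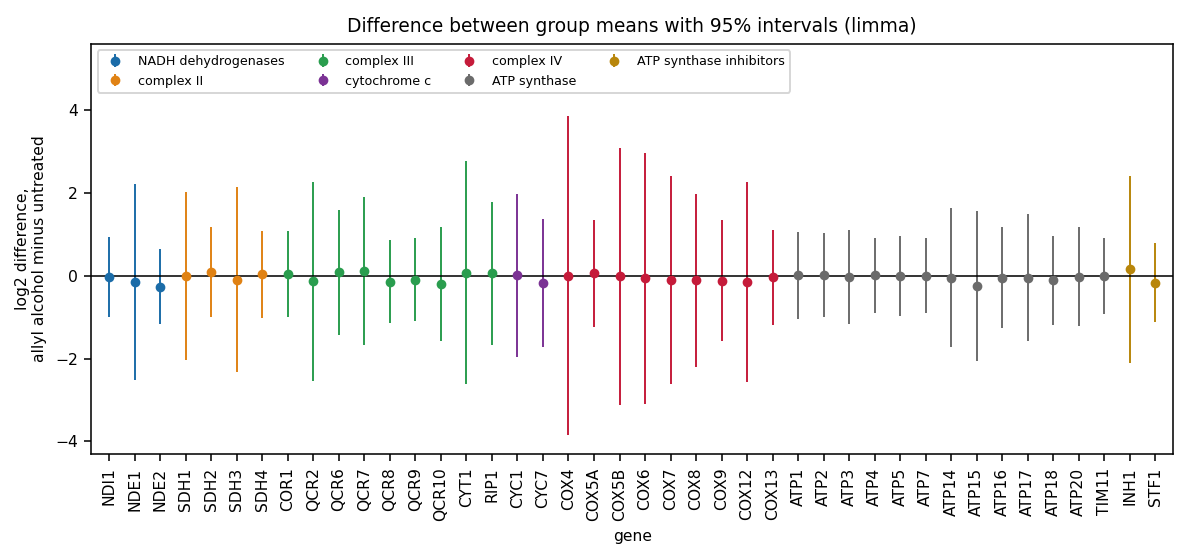
Log2 difference between group means, allyl alcohol minus untreated, for each of the 42 genes (points, coloured by complex) with 95% intervals from limma (bars). All 42 intervals include 0, and the interval of COX4 reaches -3.85 and 3.87.

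Inside a label, the differences of these genes ran mostly one way. In 40 of the 42 genes the signal followed the crossed order, against 46.2% of all genes. QCR8 and CYC7 followed the opposite one. Both turned into the crossed order when arrays were scaled to the median of added poly-A control RNA. This turn depended on the control value used, for QCR8 only inside untreated. Inside allyl alcohol the median difference of the 42 genes (replicate 1 minus replicate 2) was -0.73, beside -0.0011 for all genes. Inside untreated it was 0.58, beside -0.035. These values compare single arrays, carry no test and cannot be given without either array of a pair.

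Counts past 2-fold lay on one side. On allyl alcohol replicate 2, 16 of the 42 genes were at least 2-fold higher than on replicate 1 (19.3% of all genes) and 1, CYC7, was at least 2-fold lower (21.5%). On untreated replicate 1, 14 were at least 2-fold higher than on replicate 2 (17.6%) while 0 lay at least 2-fold below it (20.4%). In the crossed order 13 genes, or 31%, were at least 2-fold apart inside both labels, where all genes had 15.8%. In the opposite order there were 0, where all genes had 18.6%. Across the 42 genes the differences inside the 2 labels had a Pearson's r of -0.948, and across all genes -0.973.

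**Figure D2:**
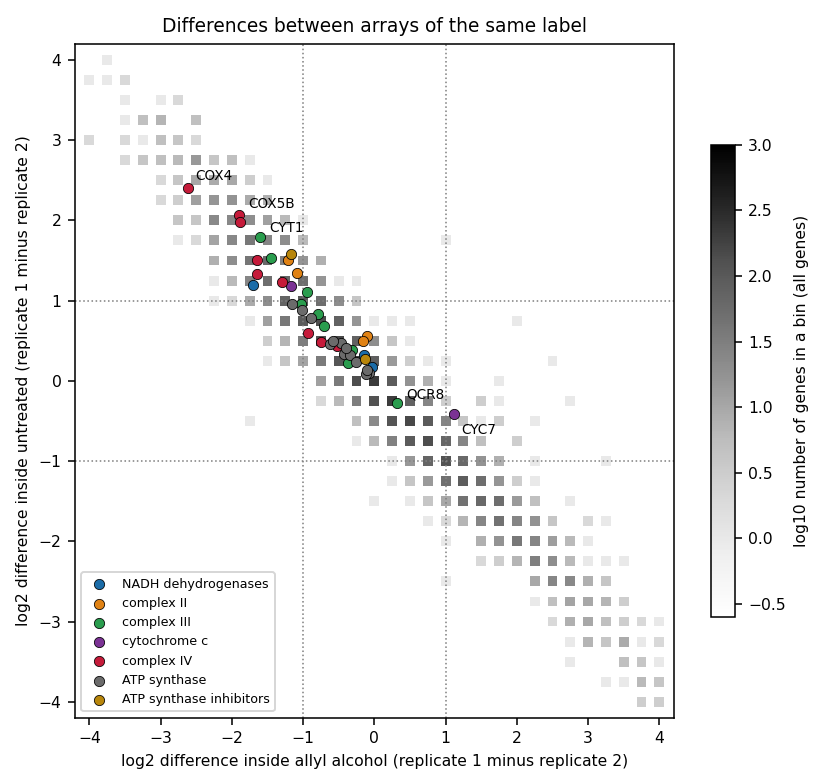
Difference between the 2 arrays inside allyl alcohol (x axis) and inside untreated (y axis), each replicate 1 minus replicate 2 in log2 units, for the 42 genes (coloured points) over binned counts of all genes (grey squares, up to 4 log2 units). Dotted lines mark 2-fold; 13 genes, led by COX4, lie past both lines in the upper left, and CYC7 and QCR8 lie in the lower right.

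Complex IV stood furthest apart. It is the terminal oxidase, and its 9 nuclear members had a median difference of -1.64 inside allyl alcohol and 1.34 inside untreated. All 9 followed the crossed order and 6 were at least 2-fold apart in both labels. COX4, the gene with the widest gap of the 42, had 10.76 and 13.38 on allyl alcohol replicates 1 and 2, against 13.27 and 10.86 on untreated replicates 1 and 2. One array of each label was thus high and the other low, 6.13-fold apart inside allyl alcohol and 5.3-fold inside untreated. Its mean was 12.07 ± 1.85 in allyl alcohol and 12.07 ± 1.70 in untreated (SD, n = 2 each). COX6, another nuclear subunit, had 10.89 and 12.79 in allyl alcohol and 12.89 and 10.91 in untreated. COX7, a small subunit, had 10.97 and 12.61 in allyl alcohol and 12.64 and 11.14 in untreated. Both repeated the layout of COX4, and their group ranges largely overlapped.

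COX12, a subunit on the intermembrane-space side, had 11.47 and 13.12 on the allyl alcohol arrays and 13.10 and 11.77 on the untreated arrays. COX8, a small membrane-spanning subunit, had 11.61 and 12.90 in allyl alcohol and 12.98 and 11.75 in untreated. These too were at least 2-fold apart inside both labels. COX5B was the sixth such gene and is given with its paralogue COX5A below. The rest of the complex was closer together: COX9, a small subunit, had 12.24 and 13.16 in allyl alcohol and 13.12 and 12.53 in untreated, and COX13, a peripheral subunit, had 12.56 and 13.09 in allyl alcohol and 13.08 and 12.64 in untreated. Their arrays kept the crossed order by less than 2-fold inside both labels. The group means of complex IV genes differed by at most 0.14, each mean being taken over a high and a low array.

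**Figure D3:**
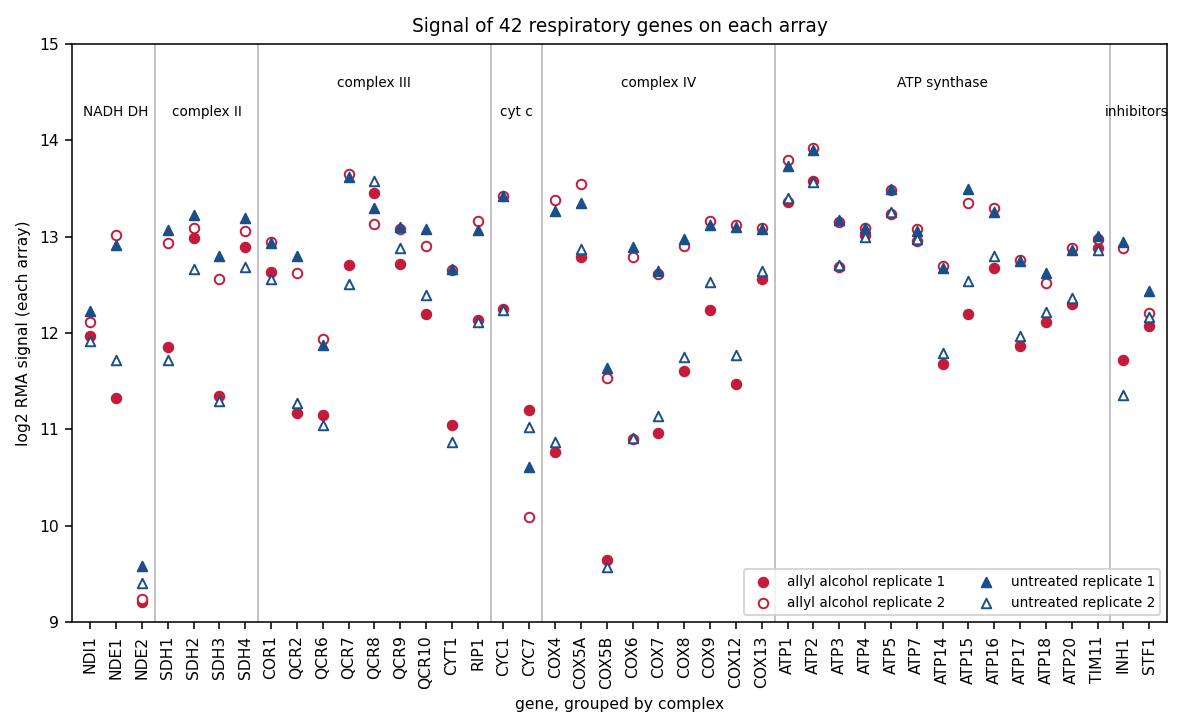
Log2 RMA signal of the 42 genes on each of the 4 arrays (y axis; allyl alcohol as red circles, untreated as blue triangles; replicate 1 filled, replicate 2 open), grouped by complex. For most complex IV genes allyl alcohol replicate 2 and untreated replicate 1 sit together above the other 2 arrays, while most ATP synthase genes lie closer together on all arrays.

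Complex III, which carries electrons between ubiquinol and cytochrome c, had medians of -0.79 inside allyl alcohol and 0.83 inside untreated, and 8 of 9 members followed the crossed order. Its electron-carrying cytochrome c1 gene CYT1 had 11.04 and 12.65 in allyl alcohol and 12.66 and 10.87 in untreated. QCR2, a core subunit, had 11.17 and 12.62 in allyl alcohol and 12.80 and 11.27 in untreated. Both were at least 2-fold apart inside each label. COR1, the other core subunit, had 12.64 and 12.94 in allyl alcohol and 12.94 and 12.56 in untreated, a much smaller gap on the same arrays. QCR7, needed for assembly of the complex, had 12.70 and 13.65 in allyl alcohol and 13.62 and 12.51 in untreated, and QCR6, an acidic subunit, had 11.15 and 11.93 in allyl alcohol and 11.88 and 11.05 in untreated. QCR8, a small subunit next to cytochrome b, had 13.46 and 13.13 in allyl alcohol and 13.30 and 13.57 in untreated and ran in the opposite crossed order, except with scaling to the poly-A controls. QCR9, a small subunit, was 1.29-fold apart inside allyl alcohol and 1.17-fold inside untreated in the crossed order, and QCR10, also small, 1.63-fold inside allyl alcohol and 1.61-fold inside untreated.

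RIP1, the Rieske iron-sulfur protein, could be read from further probe sets, because the array carries 3 control probe sets of that name for the 3' end, the middle and the 5' end. Its own probe set had 12.13 and 13.16 in allyl alcohol and 13.06 and 12.11 in untreated. The 3' set had 11.87 and 12.80 in allyl alcohol and 12.85 and 12.03 in untreated. The middle set had 11.67 and 13.00 in allyl alcohol and 12.98 and 11.80 in untreated. The 5' set had 12.04 and 13.17 in allyl alcohol and 13.07 and 11.97 in untreated. All 4 probe sets followed the crossed order, with differences between -1.33 and -0.93 inside allyl alcohol and between 0.82 and 1.18 inside untreated. For ACT1, the actin gene, the 3 control sets of the same kind differed by at most 0.083 inside either label.

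The cytochromes c, which shuttle electrons between complexes III and IV, split. CYC1, the main isoform in aerobic cells, had 12.25 and 13.42 in allyl alcohol and 13.42 and 12.23 in untreated, in the crossed order and at least 2-fold apart in both. CYC7, the isoform known from cells short of oxygen, had 11.20 and 10.09 in allyl alcohol and 10.61 and 11.02 in untreated. On the RMA scale, but not with poly-A scaling, it ran the opposite way, by 2.16-fold inside allyl alcohol and 1.33-fold inside untreated, and its groups overlapped.

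Complex II, which oxidises succinate and is shared with the tricarboxylic acid cycle, divided into a pair of genes with wide gaps and a pair with narrow ones. SDH1, the flavoprotein subunit, had 11.85 and 12.94 in allyl alcohol and 13.07 and 11.72 in untreated. SDH3, a membrane anchor, had 11.34 and 12.56 in allyl alcohol and 12.80 and 11.29 in untreated. These 2 were at least 2-fold apart inside both labels. SDH2, the iron-sulfur subunit, had 12.98 and 13.09 in allyl alcohol and 13.23 and 12.66 in untreated, and SDH4, the other anchor, had 12.89 and 13.05 in allyl alcohol and 13.19 and 12.69 in untreated. The gap of SDH2 was 1.08-fold inside allyl alcohol and 1.48-fold inside untreated, and that of SDH4 1.12-fold inside allyl alcohol and 1.42-fold inside untreated.

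Among the NADH dehydrogenases, NDE1, an outward-facing enzyme for cytosolic NADH, had 11.32 and 13.02 in allyl alcohol and 12.91 and 11.71 in untreated, in the crossed order. Its paralogue NDE2 had 9.21 and 9.24 in allyl alcohol and 9.58 and 9.40 in untreated, and NDI1, which faces the matrix, had 11.97 and 12.12 in allyl alcohol and 12.23 and 11.91 in untreated. NDE2 is the gene whose groups did not overlap; its difference of -0.26 had a standard error of 0.32 and an unadjusted p of 0.455 in limma (adjusted p = 1). Leaving out allyl alcohol replicate 1 gave a difference of -0.25, and leaving out its replicate 2 gave -0.28. For the untreated arrays these values were -0.18 with replicate 1 left out and -0.35 with replicate 2 left out. As the groups did not overlap, leaving out an array could not change the sign.

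ATP synthase genes had smaller gaps than complexes III and IV, with medians of -0.43 inside allyl alcohol and 0.41 inside untreated. All 13 followed the crossed order, but 0 were at least 2-fold apart inside both labels. Their mean signals ran from 12.2 to 13.7, those of complex IV from 10.6 to 13.1. Of respiratory genes with a mean signal of at least 12, 21.2% were at least 2-fold apart in the crossed order inside both labels. Of dimmer ones it was 66.7%, and over all genes these shares were 15.6% and 15.9%. The part of signal level in the contrast between complexes was not tested. The catalytic alpha and beta subunits differed little: ATP1 had 13.36 and 13.79 in allyl alcohol and 13.74 and 13.40 in untreated, and ATP2 had 13.58 and 13.92 in allyl alcohol and 13.90 and 13.57 in untreated. ATP3, the gamma subunit that rotates inside them, had 12.68 and 13.15 in allyl alcohol and 13.17 and 12.70 in untreated. ATP15, the small epsilon subunit of the rotor, had 12.20 and 13.35 in allyl alcohol and 13.49 and 12.54 in untreated, the widest gap of the 13. ATP16, the delta subunit, was 1.54-fold apart inside allyl alcohol and 1.37-fold inside untreated. Gaps thus differed within the rotor, the part of the enzyme that turns. In the peripheral stalk, ATP14 (subunit h) had 11.68 and 12.69 in allyl alcohol and 12.67 and 11.79 in untreated. By contrast ATP4 (subunit b) had 13.02 and 13.09 in allyl alcohol and 13.09 and 13.00 in untreated, and ATP7 (subunit d) had 12.96 and 13.07 in allyl alcohol and 13.06 and 12.97 in untreated. ATP5, the oligomycin-sensitivity protein on top of the stalk, had a gap of 1.19-fold inside allyl alcohol and 1.18-fold inside untreated. Among the membrane subunits, ATP17 (f) had gaps of 1.86-fold inside allyl alcohol and 1.72-fold inside untreated, ATP20 (g) of 1.49-fold inside allyl alcohol and 1.42-fold inside untreated, ATP18 (i/j) of 1.32-fold inside allyl alcohol and 1.33-fold inside untreated, and TIM11 (e) of 1.07-fold inside allyl alcohol and 1.1-fold inside untreated, all in the crossed order.

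The inhibitor INH1, which blocks ATP hydrolysis by the enzyme, had 11.72 and 12.89 in allyl alcohol and 12.94 and 11.36 in untreated. Its homologue STF1 had 12.07 and 12.21 in allyl alcohol and 12.44 and 12.17 in untreated. INH1 was at least 2-fold apart inside both labels, STF1 in neither.

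Where the yeast genome holds 2 or more versions of a protein, the versions did not always show the same order, and probe sets of paralogues can share signal. COX5A and COX5B encode alternative forms of 1 complex IV subunit, the first known as the aerobic and the second as the hypoxic form. COX5A had 12.79 and 13.55 in allyl alcohol and 13.35 and 12.87 in untreated. COX5B had 9.64 and 11.54 in allyl alcohol and 11.64 and 9.57 in untreated. Both followed the crossed order, with a gap of 3.71-fold inside allyl alcohol and 4.2-fold inside untreated for COX5B, and 1.68-fold inside allyl alcohol and 1.4-fold inside untreated for COX5A. COX5B thus lay on the same side as CYC1. CYC7, the cytochrome c known from cells short of oxygen, lay on the opposite side on the RMA scale and on the same side with poly-A scaling.

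The ADP/ATP carriers, which exchange the product of the ATP synthase across the inner membrane, also split. In a list of 6 carriers and porins, 0 stood in the crossed order by at least 2-fold inside both labels and 1 in the opposite one. All genes had 15.8% and 18.6%. The list had medians of 0.22 inside allyl alcohol and -0.19 inside untreated. PET9, the main carrier, had 13.32 and 13.87 in allyl alcohol and 13.90 and 13.38 in untreated, in the crossed order. AAC1, a minor carrier, had 11.07 and 10.43 in allyl alcohol and 10.51 and 11.12 in untreated, in the opposite order except with poly-A scaling. AAC3, the form known from cells without oxygen, had 10.66 and 8.05 in allyl alcohol and 7.87 and 10.90 in untreated, in the opposite order and 6.1-fold apart inside allyl alcohol and 8.14-fold inside untreated. SHH3 and SHH4, paralogues of the complex II anchors SDH3 and SDH4, ran opposite to them on the RMA scale; with poly-A scaling SHH3 did so as well, and SHH4 was in neither order. SHH3 had 11.18 and 9.82 in allyl alcohol and 10.18 and 11.27 in untreated, and SHH4 had 11.17 and 9.93 in allyl alcohol and 10.09 and 10.91 in untreated. PET9, AAC1 and SHH4 were named after their values were seen.

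**Figure D4:**
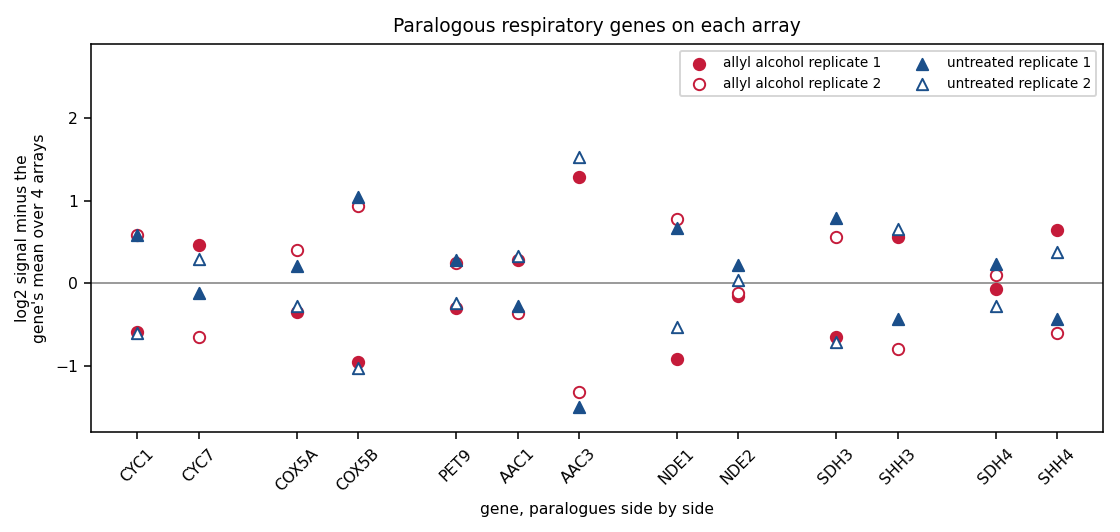
Log2 signal on each array minus the gene's own mean over the 4 arrays (y axis) for paralogous genes side by side; allyl alcohol as red circles, untreated as blue triangles, replicate 1 filled and replicate 2 open. CYC7, AAC1, AAC3, SHH3 and SHH4 are arranged opposite to CYC1, PET9, SDH3 and SDH4, while COX5B is arranged like COX5A; with poly-A scaling CYC7 and AAC1 turn into the crossed order and SHH4 follows neither.

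The transcription factors of respiratory genes were measured as well. Of 7 such regulators, 4 stood in the crossed order by at least 2-fold inside both labels and 1 in the opposite one. All genes had 15.8% and 18.6%. The 7 had medians of -1.13 inside allyl alcohol and 1.00 inside untreated. In the CCAAT-binding Hap complex, HAP4, the activating subunit that glucose represses, had 9.39 and 10.75 in allyl alcohol and 10.78 and 9.63 in untreated. HAP5, a DNA-binding subunit, had 7.33 and 9.08 in allyl alcohol and 9.14 and 7.41 in untreated. HAP3, another, had 7.61 and 8.74 in allyl alcohol and 8.87 and 7.67 in untreated. These 3 followed the crossed order by at least 2-fold inside both labels. HAP2, the other DNA-binding subunit, had 10.75 and 10.04 in allyl alcohol and 10.00 and 10.52 in untreated, and HAP1 had 10.99 and 10.66 in allyl alcohol and 10.65 and 11.10 in untreated, both in the opposite order by less than 2-fold and in the crossed order with poly-A scaling. ROX1, the repressor of hypoxic genes, had 11.54 and 10.36 in allyl alcohol and 9.81 and 11.46 in untreated, in the opposite order and 2.28-fold apart inside allyl alcohol and 3.15-fold inside untreated.

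On the RMA scale, factors that build the complexes were divided in direction, as were all genes. Of all 5449 genes, 2518 were in the crossed order and 2584 in the opposite one. At least 2-fold apart inside both labels were 15.8% of all genes in the crossed order and 18.6% in the opposite one. Of 32 assembly and translation factors of complex IV, 14 were in the crossed order and 18 in the opposite one. Of the 32, 6 were at least 2-fold apart in the crossed order inside both labels and 4 in the opposite order, with medians of 0.29 inside allyl alcohol and -0.23 inside untreated over the 32. PET494, which activates translation of COX3, was 4.44-fold apart inside allyl alcohol and 4.12-fold inside untreated in the crossed order, and the assembly factor SHY1 4.11-fold inside allyl alcohol and 3.61-fold inside untreated. PET100, an assembly factor, was 2.89-fold apart inside allyl alcohol and 2.48-fold inside untreated in the opposite order, as was COX10, which makes the precursor of haem A, by 3.43-fold inside allyl alcohol and 2.25-fold inside untreated. Of 11 such genes of complex III and the cytochromes, 3 were in the crossed order and 6 in the opposite one. At least 2-fold inside both labels were 1 in the crossed order (CBP6, for cytochrome b synthesis) and 2 in the opposite one (CBS1, a translation activator of COB, and CYT2, which attaches haem to cytochrome c1). Of 13 genes for building the ATP synthase, 5 were in the crossed order and 7 in the opposite one. At least 2-fold inside both labels were 2 in the crossed order (NCA2, for expression of ATP6 and ATP8, and ATP25, for OLI1) and 4 in the opposite one, led by INA22, for the peripheral stalk, and FMC1, for the catalytic head. The medians were 0.39 inside allyl alcohol and -0.28 inside untreated for complex III, and 0.015 inside allyl alcohol and -0.029 inside untreated for the ATP synthase. Of 4 for complex II, 0 were in the crossed order, 3 were in the opposite one, 0 were 2-fold apart inside both labels, and the medians were 0.46 inside allyl alcohol and -0.40 inside untreated. With poly-A scaling, which moves every gene alike, the medians of all 4 lists turned to the crossed direction. The medians of all genes then were -1.18 inside allyl alcohol and 0.85 inside untreated. Those of the list were -0.88 inside allyl alcohol and 0.66 inside untreated for complex IV, where 3 of the 18 factors were still in the opposite order. They were -0.78 inside allyl alcohol and 0.61 inside untreated for complex III, with 2 of 6 still opposite. For complex II they were -0.72 inside allyl alcohol and 0.49 inside untreated, with 0 of 3 still opposite, and for the ATP synthase -1.16 inside allyl alcohol and 0.86 inside untreated, with 3 of 7 still opposite.

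Both cofactor pathways had medians in the crossed order. Of all genes, 15.8% were at least 2-fold apart inside both labels in the crossed order and 18.6% in the opposite one. Ubiquinone synthesis genes (11) had medians of -0.75 inside allyl alcohol and 0.78 inside untreated, with 9 in the crossed order and 2 in the opposite one, of which 3 and 1 (COQ9) were at least 2-fold apart inside both labels. CAT5, a hydroxylase of that pathway, was 4.35-fold apart inside allyl alcohol and 4.78-fold inside untreated, and COQ6, a mono-oxygenase, 2.54-fold inside allyl alcohol and 2.68-fold inside untreated. Haem synthesis genes (8) had -0.75 inside allyl alcohol and 0.75 inside untreated, with 6 in the crossed order and 2 in the opposite one, of which 3 and 0 were at least 2-fold apart inside both labels. HEM13, coproporphyrinogen oxidase, was 4.06-fold apart inside allyl alcohol and 4.36-fold inside untreated, and HEM15, ferrochelatase, 2.31-fold inside allyl alcohol and 2.55-fold inside untreated. Of 6 further subunits, paralogues and associated factors, 4 were in the crossed order and 2, SHH3 and SHH4, in the opposite one, with medians of -0.68 inside allyl alcohol and 0.76 inside untreated. At least 2-fold apart inside both labels were 3 of the 4 (the supercomplex factor RCF2, STF2 and the ATP synthase subunit ATP19) and SHH3.

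Other mitochondrial lists had medians nearer to 0 on the RMA scale. The 11 tricarboxylic acid cycle genes, 5 in the crossed order and 5 in the opposite one, had -0.065 inside allyl alcohol and -0.02 inside untreated, although ACO1, aconitase, was 3.46-fold apart inside allyl alcohol and 2.8-fold inside untreated and LSC2, a succinyl-CoA ligase subunit, 4.32-fold inside allyl alcohol and 4.81-fold inside untreated, both in the crossed order. The 54 mitochondrial ribosomal protein genes had 0.041 inside allyl alcohol and -0.076 inside untreated, with 21 in the crossed order and 27 in the opposite one. At least 2-fold apart inside both labels were 2 in the crossed order (MRPL8 and MRPL40) and 2 in the opposite one (RSM22 and MRPS17). For all genes these shares were 15.8% and 18.6%. Among 5 other dehydrogenases that feed the chain, 2 were in the crossed order and 3 in the opposite one, and DLD1, for D-lactate, and GUT2, for glycerol 3-phosphate, were at least 2-fold apart inside both labels, DLD1 in the crossed and GUT2 in the opposite order. The 5 had medians of 0.0098 inside allyl alcohol and -0.048 inside untreated. The differences between these lists and the 42 genes were not tested, and by label 0 genes of any list were called in limma.

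Of 12 genes known to be repressed by glucose, listed as markers of low glucose, 11 ran opposite to most respiratory genes on the RMA scale. ADH2 was in neither order, with 0.405 inside allyl alcohol and 0.75 inside untreated. With poly-A scaling the medians still ran opposite, while ADH2, ICL1, PCK1 and YAT1 were in the crossed order. Of the 12, 7 were at least 2-fold apart inside both labels in the opposite crossed order (18.6% of all genes) and 0 in the crossed order (15.8%). The 12 had medians of 1.66 inside allyl alcohol and -1.28 inside untreated. Their median signal was 9.91 and 8.95 on allyl alcohol replicates 1 and 2, against 9.15 and 9.96 on untreated replicates 1 and 2, and all 12 were above background on every array. SIP4, an activator of gluconeogenic genes, was 6.13-fold apart inside allyl alcohol and 5.63-fold inside untreated, and ACS1, an acetyl-CoA synthetase, 5.12-fold inside allyl alcohol and 4.55-fold inside untreated. The 12 do not stand for all genes that glucose represses. HAP4, also repressed by glucose, was not among them and followed the crossed order, with -1.36 inside allyl alcohol and 1.15 inside untreated. So did 40 of the 42 respiratory genes, many of which glucose represses. The part of the 12 genes in the respiratory gene differences was not tested.

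**Figure D5:**
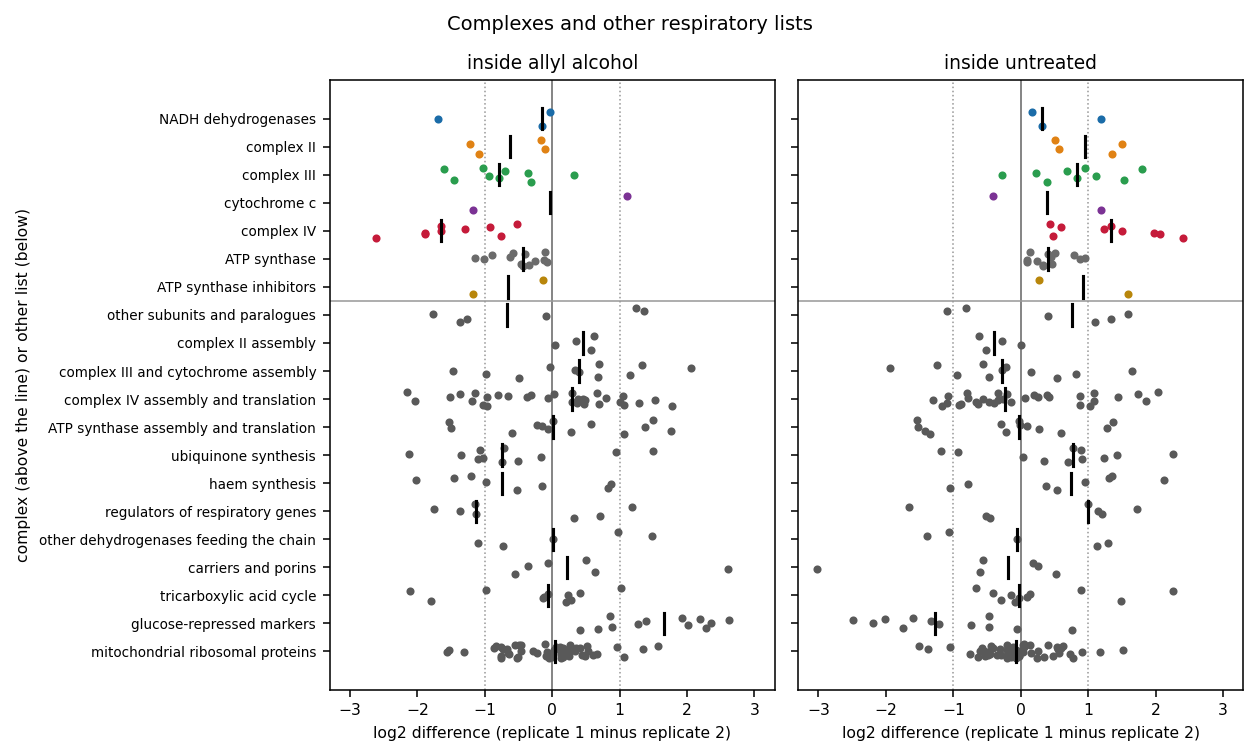
Log2 difference between the 2 arrays of a label (x axes, replicate 1 minus replicate 2; allyl alcohol left, untreated right) for each gene (points) of the 7 groups of respiratory genes and of 13 other lists, with the median of each as a black bar and 2-fold as dotted lines. Complex IV lies furthest from 0 among the respiratory groups, and the medians of the glucose-repressed markers lie on the other side of 0.

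Control probe sets for Bacillus poly-A RNA spiked into the samples (24) had a median difference of 1.12 inside allyl alcohol and -0.89 inside untreated, so they too ran opposite to the respiratory genes. Single poly-A control sets ranged from 0.74 to 1.52 inside allyl alcohol and from -1.06 to -0.20 inside untreated. Hybridisation control probe sets (18) had smaller medians, 0.15 inside allyl alcohol and -0.20 inside untreated. They ranged from -0.25 to 0.57 inside allyl alcohol and from -0.57 to 0.17 inside untreated. With each array scaled to the poly-A controls, the median of all genes shifted to -1.18 inside allyl alcohol and 0.85 inside untreated. At least 2-fold apart in the crossed order were then 43.8% of all genes and 38 of the 42. QCR8 then followed the crossed order, with -0.85 inside allyl alcohol and 0.61 inside untreated, as did CYC7, with -0.062 inside allyl alcohol and 0.47 inside untreated. Inside a label the scaling moves every gene by the same amount, -1.18 inside allyl alcohol and 0.89 inside untreated. Genes in the opposite order by less than that amount therefore change direction. The RMA differences of CYC7, 1.11 inside allyl alcohol and -0.41 inside untreated, lay within the ranges of the single poly-A control sets. So did that of QCR8 inside untreated, at -0.275. These changes of direction thus depended on the control value used. The difference of QCR8 inside allyl alcohol, 0.32, lay below all single poly-A control values, the smallest being 0.74. The glucose-repressed markers then had medians of 0.48 inside allyl alcohol and -0.39 inside untreated. Of the 11 in the opposite order on the RMA scale, 7 were still in it and 3 turned into the crossed order. Beside that shift, complex IV had medians of -2.82 inside allyl alcohol and 2.23 inside untreated, and the ATP synthase -1.61 inside allyl alcohol and 1.30 inside untreated. The part of the controls in the respiratory gene differences was not tested. In these bulk cultures, fewer cells expressing a gene and less RNA per cell cannot be told apart.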

How the data were processed

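RNA of 4 cultures (allyl alcohol 2, untreated 2) was hybridised to 1 Affymetrix yeast array each. The deposited values are log2 signals of 10928 probe sets, made by the authors with RMA in Affymetrix Expression Console, per the submitters' processing notes; the sources used here give no version of either. RMA quantile-normalizes the arrays, so a change shared by most genes is not kept. Probe sets were named through GEO's platform annotation with symbols updated through RefSeq: 5498 belonged to S. cerevisiae, 1 had several genes and 3683 none. The brightest probe set was kept for each of 47 genes with several, leaving 5449 genes. Background was the 95th percentile of the 1746 named probe sets outside S. cerevisiae.

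Groups were compared in limma 3.58.1 (R 4.3.3, lmFit, eBayes, Benjamini-Hochberg over 5449 genes, adjusted p of at most 0.05). The fit was also run on simulated arrays with independent noise. That does not test it for arrays whose deviations are correlated, as they are here. Arrays of the same label were compared by difference, with at least 2-fold (1 log2 unit) in both labels counted. P-values measure only the spread between these arrays, whose number limits the precision. All 42 genes are named, with up to 2 of each other list with the largest and up to 2 with the most negative difference inside untreated among those at least 2-fold apart inside both labels, and HAP1 to HAP5 and ROX1. The genes and lists were chosen with earlier results of these data known. Other normalizations, filters, probe set choices, a replicate block and each array left out were tried.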

Additional observations from a re-analysis of the deposited data

How the results depend on the processing

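In limma, 0 of 5449 genes were called by label with 0 at an unadjusted p under 0.05, and 0 were called under every alternative run: quantile normalization anew, median centring, a background filter, the mean of a gene's probe sets, an intensity trend, all probe sets (9 unadjusted), scaling to the poly-A controls, and each array left out, where the lone array was assumed to vary like the others. With the replicate number as a block, 0 were called as well. The numbers do not pair the arrays, since the deviations of arrays with the same number correlated at -0.973. A crossed block, chosen after seeing the data, called 0 genes, with 188 at an unadjusted p under 0.05 and 0 of them among the 42. Differences of the 42 genes between labels changed sign for 2 genes under quantile normalization, 4 under centring and 6 under poly-A scaling. With 1 array left out, 16 or 23 changed sign, single differences lay between -1.30 and 1.31, and their median between -0.34 and 0.30. The count of 13 genes past 2-fold inside both labels was 13 to 15 under the other normalizations, filter and probe set choice. It was 21 at a log2 difference of 0.58 and 38 with poly-A scaling, an alternative chosen after seeing the data. With 2 arrays a label, the median standard error of the 42 differences was 0.49.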
